A study of Homo sapiens with 12 samples.

Results

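The aminoacyl-tRNA synthetases are the enzymes that join each amino acid to its own transfer RNA, the step that makes the raw material of translation. Human cells keep a cytosolic set and a mitochondrial set, both encoded in the nucleus, and a mitochondrial enzyme usually has a symbol that ends in 2. GARS1 and KARS1 are exceptions, since each gene makes the enzyme of both compartments, and EPRS1 joins the glutamyl and prolyl enzymes in a single protein. When charged tRNA runs short, uncharged tRNA activates the kinase GCN2, which phosphorylates the initiation factor eIF2 and raises translation of the transcription factor ATF4, and many genes for cytosolic synthetases are known targets of ATF4. Members were chosen by gene symbol from a list of 35 synthetase genes, 19 cytosolic and 16 mitochondrial. Of these, 32 had a tested value, 17 cytosolic and 15 mitochondrial, among 12887 tested genes. MARS1, QARS1 and TARS2, the methionyl, glutaminyl and mitochondrial threonyl enzymes, are not analysed here, because their probe sets on the array carry several gene symbols.

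The samples were 12 Affymetrix arrays, 3 in each of 4 groups, of RNA from MDA231 cells (MDA-MB-231, an established line of triple-negative human breast cancer). The ETX group carried a scrambled short hairpin RNA and received ETX, taken here to be the CPT1 inhibitor etomoxir, since the labels do not spell it out and give no dose or duration for the arrays. The shCPT-1 and shCPT-2 groups carried a pGIPZ lentiviral hairpin against CPT1 (no isoform given) or CPT2, the carnitine palmitoyltransferases that bring long-chain fatty acids to oxidation in mitochondria, and the scramble group carried the scrambled hairpin alone. The labels leave unsaid whether the arrays of a group are of separate cultures and how many clones or hairpins a knockdown stands for, so p-values speak only to the spread among these arrays, and that spread may be technical. Values are log2 intensities, and a difference of 1 on this scale is a doubling. A gene was called, here written as rose or fell, at a limma adjusted p under 0.05 over all tested genes. Errors of changes are standard errors (SE) of that fit with n = 3 arrays per group.

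Promoters were searched for the CEBP-ATF response element TGATGNAAN on both strands, the composite site through which ATF4 with a CEBP partner is known to act. RefSeq (GRCh38.p14) gave a window of 250 bases before to 50 after the gene start for 16 of the 19 cytosolic and 14 of the 16 mitochondrial members. The element was found in 7 of those 16 cytosolic windows (43.8%), those of AARS1, CARS1, GARS1, IARS1, MARS1, NARS1 and TARS1, and in 1 of 14 mitochondrial windows (7.14%), that of YARS2. Of all 35116 promoter windows 1268 held it (3.61%), and of the 10431 tested genes with a window 300 did (2.88%). LARS1, VARS1, YARS1, AARS2 and VARS2 had no window in the table. The 4 cytosolic members with a match and the smallest adjusted p with ETX are shown with the mitochondrial one, as 50 bases before and 20 after the match, 5′ to 3′ on the strand of the gene, with the match in capitals. In the cytosolic examples the match is the reverse complement of the element, and in YARS2 it is the element as written.
GARS1: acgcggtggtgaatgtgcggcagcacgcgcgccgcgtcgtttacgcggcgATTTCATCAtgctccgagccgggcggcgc
CARS1: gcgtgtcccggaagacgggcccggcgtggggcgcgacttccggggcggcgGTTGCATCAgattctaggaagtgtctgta
AARS1: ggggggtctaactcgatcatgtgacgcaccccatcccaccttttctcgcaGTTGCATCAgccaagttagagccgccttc
IARS1: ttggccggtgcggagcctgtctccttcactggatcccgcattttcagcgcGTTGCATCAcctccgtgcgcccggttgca
YARS2: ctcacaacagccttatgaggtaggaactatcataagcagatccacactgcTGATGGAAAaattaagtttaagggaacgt
These stretches lie at chr7:30594794-30594872 (plus strand, GARS1), chr11:3057398-3057476 (minus strand, CARS1), chr16:70289666-70289744 (minus strand, AARS1), chr9:92293683-92293761 (minus strand, IARS1) and chr12:32756066-32756144 (minus strand, YARS2) of GRCh38.p14. CARS1, AARS1 and IARS1 share the same 9 matched letters, and the GARS1 match differs from them within the open positions of the element. Counted from the annotated start, the match begins at -34 in GARS1, -3 in CARS1 and -14 in IARS1, but farther upstream at -188 in AARS1 and -197 in YARS2. A match is a description of these letters and shows no binding.

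The hairpin targets check the labels. CPT1A, which encodes the liver isoform of CPT1, had log2 intensities of 8.11, 8.10 and 8.34 in shCPT-1, against 9.64, 9.84 and 9.86 in scramble (-1.59 ± 0.08 SE, limma adjusted p = 1.97e-08), and CPT2 had 6.61, 6.22 and 6.39 in shCPT-2, against 7.46, 7.31 and 7.46 in scramble (-1.001 ± 0.099 SE, limma adjusted p = 5.46e-06). All 6 markers of MDA-MB-231 (VIM, CD44, AXL, CAV1, MSN and TGFBI) were above the array median on every array. So were 5 of 8 markers of luminal epithelium (ESR1, ERBB2, GATA3, EPCAM and KRT8). The same held for 1 of 4 of leukocytes (CD3E), 1 of 3 of endothelium (PECAM1) and 1 of 5 of fibroblasts (COL1A1). PTPRC of leukocytes, CDH5 of endothelium, LUM of fibroblasts, and PGR and CDH1 of luminal epithelium were under it on every array. Array medians lay between 74.9 and 77.2 intensity units. All 32 tested synthetases were above the array median on all 12 arrays, and the SD of a member within a group had a median of 0.06 and a highest value of 0.20. The actin control, the log2 signal at the 3′ end of the transcript minus that at the 5′ end, which grows as RNA is degraded, averaged 1.75 ± 0.06 (SD) in ETX, 1.73 ± 0.23 in shCPT-1 and 1.68 ± 0.23 in shCPT-2, against 2.07 ± 0.27 in scramble (n = 3 each). Scramble 3 read 1.76, while scramble 1 and 2 read 2.25 and 2.19, so this measure moved with the groups apart from that array, and scramble 3 was also the scramble array least like its group. With this control as a covariate, called changes against scramble came out over 1.5 times smaller for 5 of 25 members called with ETX, 8 of 19 in shCPT-1 and 7 of 17 in shCPT-2, and 3, 5 and 3 of these were still called. Those still called were FARSA (0.22), HARS1 (-0.16) and RARS2 (0.17) with ETX, FARS2 (0.24), IARS1 (0.16), SARS1 (0.18), VARS2 (-0.24) and WARS1 (0.15) in shCPT-1, and FARSA (0.26), SARS1 (0.16) and WARS1 (0.15) in shCPT-2. The part of RNA quality in these results was not tested further.

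With ETX most cytosolic synthetases rose and the mitochondrial ones did not move as a class. Of 17 cytosolic members, 13 rose and 3 fell, while 21.9% of all tested genes rose and 19.4% fell. Their median change was 0.40, against a median of -0.01 over all tested genes. Of 15 mitochondrial members, 4 rose and 5 fell, with a median change of 0.001. FARSB, the beta subunit of the cytosolic phenylalanyl enzyme, was the cytosolic member with no call (-0.09 ± 0.05). In either direction, 16 of 17 cytosolic and 9 of 15 mitochondrial members were called, where 41.3% of all tested genes were. The 16 called cytosolic members also had ETX and scramble arrays that did not overlap, which held for 49.5% of all tested genes. The 13 rises were also counted when any 1 of the 12 arrays was left out and when the actin control was a covariate, although some changes were smaller in that fit. With that covariate 16.8% of all tested genes rose with ETX.

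In shCPT-1 the cytosolic rises were fewer and smaller. Of 17 cytosolic members 9 rose and 2 fell, where 23.1% of all tested genes rose and 18% fell, and the median change was 0.14. Of 15 mitochondrial members 5 rose and 3 fell, with a median of -0.03. In shCPT-2, 10 of 17 cytosolic members rose and 1 fell, with a median of 0.24, where 25.6% of all tested genes rose and 20.5% fell. Of 15 mitochondrial members 5 rose and 1 fell in shCPT-2, with a median of 0.05. Called in either direction were 11 cytosolic and 8 mitochondrial members in shCPT-1, where 41.1% of all tested genes were, and 11 and 6 in shCPT-2, where 46.1% were. Over all tested genes the median change was 0.01 in shCPT-1 and 0.005 in shCPT-2. All 3 comparisons share the 3 scramble arrays, so a scramble array that read high or low would shift all of them.

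**Figure D1:**
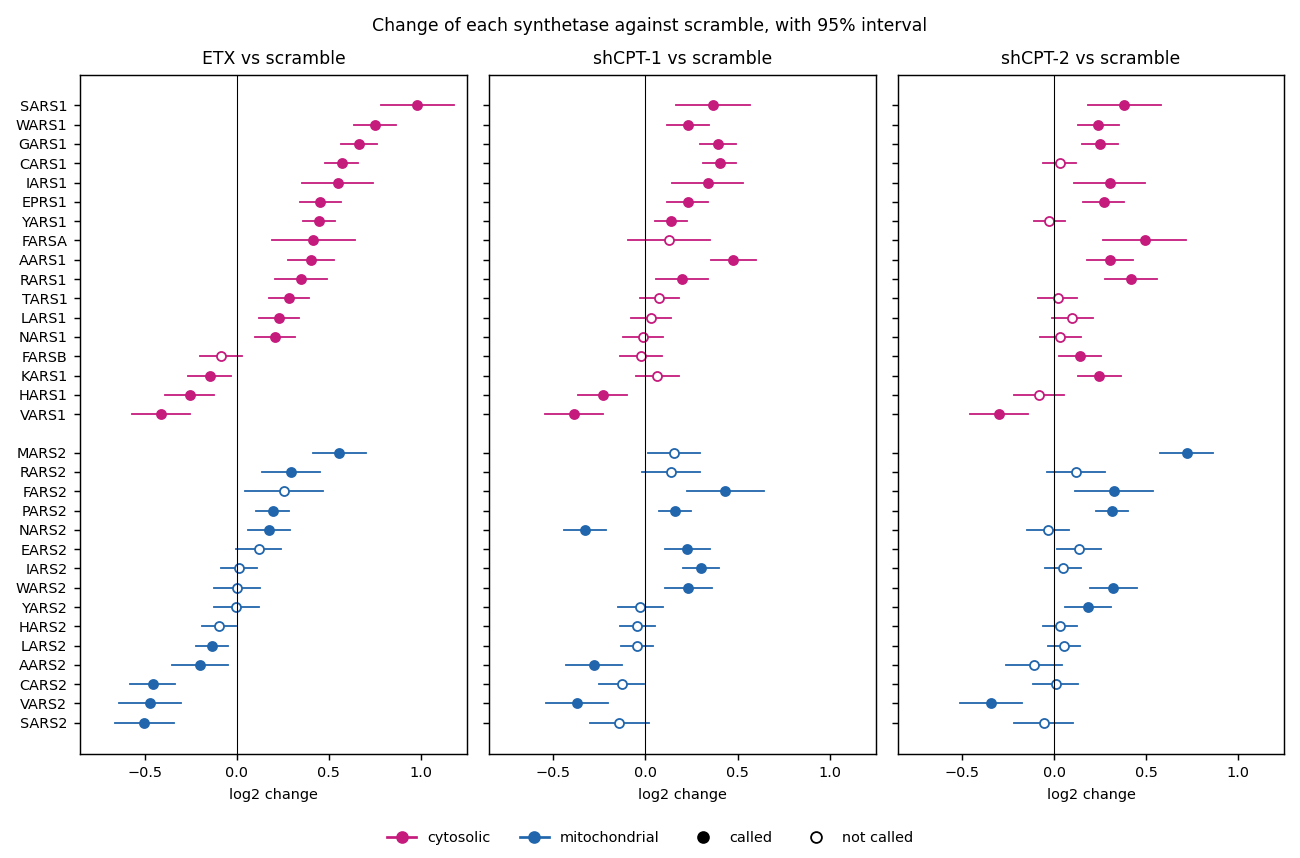
Log2 change of each tested synthetase (rows) against scramble with its 95% interval, in ETX, shCPT-1 and shCPT-2 (panels from left to right, n = 3 arrays per group); filled points passed a limma adjusted p under 0.05 and open points did not. With ETX 13 of 17 cytosolic members lie to the right of zero with filled points, while the 15 mitochondrial members spread from -0.50 for SARS2 to 0.56 for MARS2.

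SARS1, the cytosolic seryl-tRNA synthetase, had the largest change of the tested members with ETX. It had log2 intensities of 11.47, 11.48 and 11.41 in ETX, 11.00, 10.78 and 10.74 in shCPT-1 and 10.90, 10.75 and 10.92 in shCPT-2, against 10.32, 10.43 and 10.68 in scramble. All 9 arrays of the altered groups were above the scramble arrays, and the ETX arrays were above all the others. It rose 1.97-fold with ETX (0.98 ± 0.09, limma adjusted p = 1.34e-05), 1.29-fold in shCPT-1 (0.37 ± 0.09, 0.0066) and by 0.38 ± 0.09 in shCPT-2 (0.00448). With the actin control as a covariate the SARS1 changes were 0.80, 0.18 and 0.16 (limma adjusted p = 6.47e-06, 0.0299 and 0.0488), so both knockdown rises were less than 0.5 times as large in that fit. A second SARS1 probe set read 1.02 with ETX, and larger knockdown rises of 0.94 in shCPT-1 and 0.71 in shCPT-2, so the size of those rises differs with the probe set.

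WARS1, the tryptophanyl enzyme, which interferon also induces, had 11.25, 11.25 and 11.26 in ETX, 10.84, 10.70 and 10.67 in shCPT-1 and 10.73, 10.72 and 10.78 in shCPT-2, against 10.49, 10.45 and 10.57 in scramble. The ETX arrays stood apart from the other 9, and both knockdown groups lay just above scramble. WARS1 rose 1.68-fold with ETX (0.75 ± 0.05, limma adjusted p = 1.35e-06), and by 0.23 ± 0.05 in shCPT-1 (0.00341) and 0.24 ± 0.05 in shCPT-2 (0.00227).

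GARS1, the glycyl enzyme of cytosol and mitochondria, had 12.50, 12.54 and 12.50 in ETX, 12.32, 12.23 and 12.18 in shCPT-1 and 12.09, 12.07 and 12.14 in shCPT-2, against 11.84, 11.85 and 11.86 in scramble. Its 4 groups did not overlap and ran in the order scramble, shCPT-2, shCPT-1, ETX. The rise was 1.58-fold with ETX (0.66 ± 0.05, limma adjusted p = 1.34e-06), 0.40 ± 0.05 on the log2 scale in shCPT-1 (2.34e-05) and 0.25 ± 0.05 in shCPT-2 (0.000677). Its promoter window holds the response element close to the start.

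CARS1, the cysteinyl enzyme, separated the 2 knockdowns on the probe set that stands for it. It had 12.19, 12.17 and 12.20 in ETX, 12.01, 12.02 and 12.02 in shCPT-1 and 11.61, 11.71 and 11.61 in shCPT-2, against 11.64, 11.60 and 11.60 in scramble. The ETX and shCPT-1 arrays were above all scramble arrays, and the shCPT-2 arrays overlapped them. CARS1 rose 1.48-fold with ETX (0.57 ± 0.04, limma adjusted p = 1.73e-06) and 1.32-fold in shCPT-1 (0.40 ± 0.04, 8.79e-06), and differed by 0.03 ± 0.04 in shCPT-2 (0.579, 95% interval -0.06 to 0.12). YARS1, the tyrosyl enzyme, had 11.98, 12.02 and 11.99 in ETX, 11.74, 11.66 and 11.68 in shCPT-1 and 11.51, 11.53 and 11.55 in shCPT-2, against 11.55, 11.56 and 11.54 in scramble. The shCPT-2 arrays of YARS1 overlapped scramble and those of ETX and shCPT-1 lay above it. YARS1 rose by 0.45 ± 0.04 with ETX (limma adjusted p = 8.7e-06) and by 0.14 ± 0.04 in shCPT-1 (0.0131), a call that ended without shCPT-1 1 (0.12, limma adjusted p = 0.0511), and it differed by -0.03 ± 0.04 in shCPT-2 (0.623). A second YARS1 probe set read 0.20 in shCPT-1 and 0.18 in shCPT-2, a difference of -0.014 between the knockdowns (limma adjusted p = 0.912).

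AARS1, the alanyl enzyme, was highest in shCPT-1. Its values were 10.46, 10.44 and 10.49 in ETX, 10.61, 10.49 and 10.51 in shCPT-1 and 10.31, 10.38 and 10.39 in shCPT-2, against 9.98, 10.01 and 10.19 in scramble. All 3 altered groups lay above scramble, by 0.40 ± 0.06 with ETX (limma adjusted p = 0.000246), 0.48 ± 0.06 in shCPT-1 (3.49e-05) and 0.30 ± 0.06 in shCPT-2 (0.00088). IARS1, the isoleucyl enzyme of the multi-synthetase complex, had 12.62, 12.61 and 12.68 in ETX, 12.57, 12.36 and 12.35 in shCPT-1 and 12.42, 12.28 and 12.47 in shCPT-2, against 11.95, 12.02 and 12.30 in scramble. Scramble 3 was the highest scramble array for AARS1 and IARS1, and for IARS1 it overlapped the shCPT-2 arrays. IARS1 rose by 0.55 ± 0.09 with ETX (limma adjusted p = 0.000544), by 0.34 ± 0.09 in shCPT-1 (0.00867) and by 0.30 ± 0.09 in shCPT-2 (0.0139). The shCPT-2 rise of IARS1 was not called without scramble 1 (0.23), scramble 2 (0.27) or shCPT-2 3 (0.26), nor with the actin covariate (0.09).

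**Figure D2:**
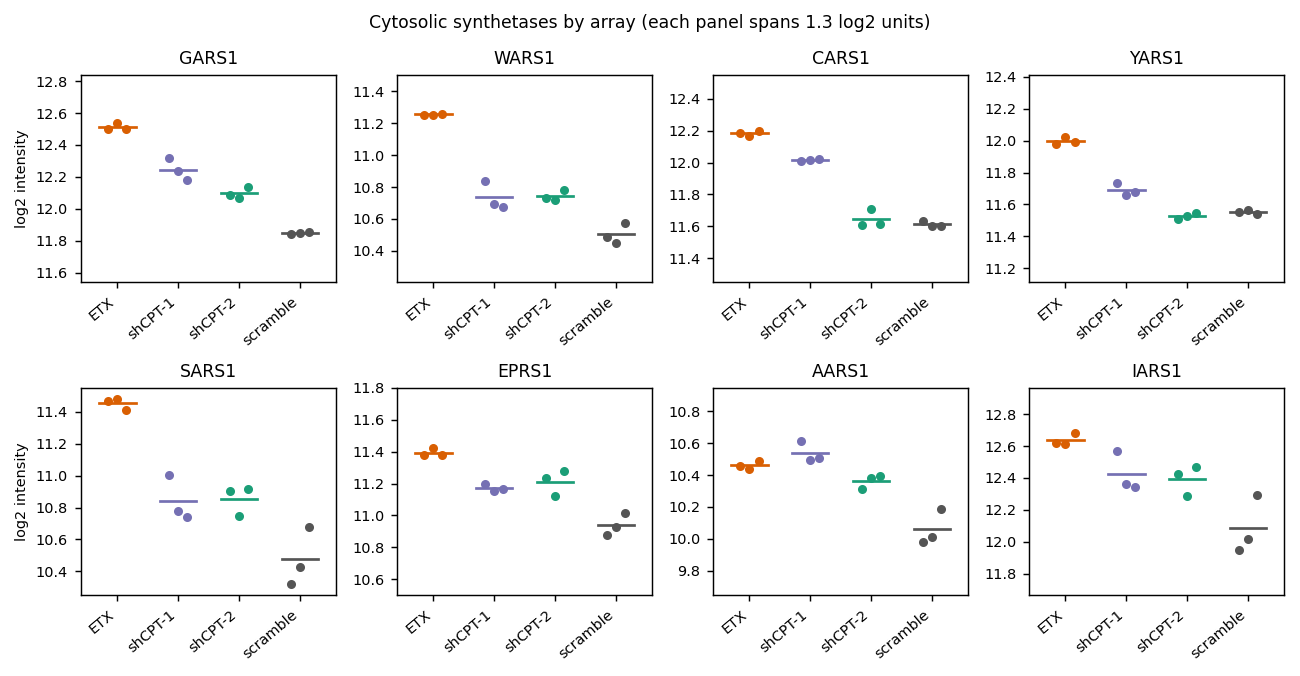
Log2 intensity (vertical axis, 1.3 log2 units in every panel) of the 8 cytosolic synthetases with the smallest adjusted p for ETX, with 1 point per array and a line at each group mean, for ETX, shCPT-1, shCPT-2 and scramble from left to right. In each panel the 3 ETX points lie above the 3 scramble points, with means of 11.45 against 10.48 for SARS1 and 12.51 against 11.85 for GARS1, while the shCPT-2 points of CARS1 and YARS1 overlap the scramble points.

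Members of the multi-synthetase complex, which holds several cytosolic enzymes on shared scaffold proteins, were counted together. Of the 7 on the list, 5 were tested (EPRS1, IARS1, KARS1, LARS1 and RARS1). In ETX 4 of the 5 rose and KARS1 fell, in shCPT-1 3 rose, and in shCPT-2 4 rose, where 21.9%, 23.1% and 25.6% of all tested genes rose. Of the 12 members outside the complex, 9 rose and 2 fell with ETX, 6 rose and 2 fell in shCPT-1, and 6 rose and 1 fell in shCPT-2, where 19.4%, 18% and 20.5% of all tested genes fell. By catalytic fold, 7 of 8 tested cytosolic class I enzymes and 6 of 9 of class II rose with ETX.

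RARS1, the arginyl enzyme, had 11.76, 11.76 and 11.65 in ETX, 11.66, 11.53 and 11.54 in shCPT-1 and 11.84, 11.69 and 11.84 in shCPT-2, against 11.28, 11.37 and 11.48 in scramble. Each altered group lay above scramble, with shCPT-2 at the highest mean. It rose by 0.35 ± 0.06 with ETX (limma adjusted p = 0.00127), by 0.20 ± 0.06 in shCPT-1 (0.0257) and by 0.42 ± 0.06 in shCPT-2 (0.000201). The shCPT-1 rise of RARS1 was not called without scramble 1 (0.15), scramble 2 (0.20) or shCPT-1 1 (0.16), nor with the actin covariate (0.09). EPRS1, the glutamyl-prolyl enzyme, had 11.38, 11.42 and 11.38 in ETX, 11.19, 11.15 and 11.17 in shCPT-1 and 11.23, 11.12 and 11.28 in shCPT-2, against 10.88, 10.93 and 11.02 in scramble. None of its altered arrays overlapped scramble, and its rises were 0.45 ± 0.05 (limma adjusted p = 5.17e-05), 0.23 ± 0.05 (0.0034) and 0.27 ± 0.05 (0.000893) in ETX, shCPT-1 and shCPT-2. Its other probe sets read otherwise. LARS1, the leucyl enzyme that also takes part in leucine sensing by mTORC1, rose by 0.23 ± 0.05 with ETX (limma adjusted p = 0.00361) and differed by 0.03 in shCPT-1 and 0.10 in shCPT-2, neither called. The LARS1 rise was not called with its probe sets averaged (0.08, limma adjusted p = 0.161). With ETX those probe sets ran from -0.35 to 0.49. In the knockdowns its other probe sets were called in both directions. A higher set read 0.24 in shCPT-1 (limma adjusted p = 0.0248) and 0.39 in shCPT-2 (0.00125). Another read -0.63 (0.00196) and -0.73 (0.000551), and the last -0.18 (0.0224) and -0.13 (0.0728, not called). The LARS1 values in the knockdowns thus rest on the probe set used.

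KARS1, the lysyl enzyme of cytosol and mitochondria, went against most of its class with ETX. It had 13.07, 13.10 and 13.04 in ETX, 13.20, 13.32 and 13.32 in shCPT-1 and 13.44, 13.49 and 13.46 in shCPT-2, against 13.26, 13.28 and 13.12 in scramble. ETX arrays were the lowest and shCPT-2 arrays the highest, and the shCPT-1 arrays overlapped scramble. KARS1 fell by 0.15 ± 0.05 on the log2 scale with ETX (limma adjusted p = 0.0422) and rose by 0.24 ± 0.05 in shCPT-2 (0.0023). The fall was not called without scramble 1, scramble 2, ETX 1, ETX 2, ETX 3, shCPT-1 2, shCPT-1 3, shCPT-2 1 or shCPT-2 3, with values between -0.16 and -0.12, and it was -0.07 with the actin covariate. In all, 15 of 24 alternatives ended it. A second KARS1 probe set was lower with ETX (-0.28, limma adjusted p = 0.00287) and higher in shCPT-2 (0.28, 0.0019).

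VARS1 and HARS1 also fell with ETX. VARS1, the valyl enzyme, had 10.44, 10.48 and 10.55 in ETX, 10.43, 10.55 and 10.56 in shCPT-1 and 10.47, 10.74 and 10.59 in shCPT-2, against 10.98, 10.91 and 10.80 in scramble. Every altered array was below every scramble array, with falls of 0.41 ± 0.07 (limma adjusted p = 0.000975), 0.39 ± 0.07 (0.00103) and 0.30 ± 0.07 (0.00467) in ETX, shCPT-1 and shCPT-2. The shCPT-2 fall of VARS1 was not called with the actin covariate (-0.17), and a second VARS1 probe set rose. HARS1, the histidyl enzyme, had 11.22, 11.30 and 11.24 in ETX, 11.18, 11.31 and 11.34 in shCPT-1 and 11.35, 11.55 and 11.38 in shCPT-2, against 11.56, 11.53 and 11.44 in scramble. ETX and shCPT-1 lay below scramble and shCPT-2 overlapped it. HARS1 fell by 0.26 ± 0.06 with ETX (limma adjusted p = 0.00624) and by 0.23 ± 0.06 in shCPT-1 (0.00954, and -0.13 with the actin covariate, not called), and differed by -0.08 in shCPT-2.

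FARSA and FARSB encode the alpha and beta subunits of the cytosolic phenylalanyl enzyme. FARSA had 9.35, 9.39 and 9.54 in ETX, 9.36, 8.98 and 9.08 in shCPT-1 and 9.49, 9.38 and 9.64 in shCPT-2, against 8.91, 8.96 and 9.17 in scramble. The ETX and shCPT-2 arrays of FARSA were above scramble, and shCPT-1 1 stood above the other shCPT-1 arrays. FARSA rose by 0.42 ± 0.10 with ETX (limma adjusted p = 0.00708) and by 0.49 ± 0.10 in shCPT-2 (0.00181), and differed by 0.13 ± 0.10 in shCPT-1 (0.347). The other FARSA probe set read -0.17 with ETX and -0.02 in shCPT-2, so both rises rest on the probe set used, and with the sets averaged the ETX rise was not called (0.12). FARSB differed by -0.09 with ETX and -0.03 in shCPT-1, neither called. In shCPT-2 FARSB was 0.14 ± 0.05 higher (limma adjusted p = 0.047), a call that ended without any of scramble 1, scramble 2, ETX 1, ETX 2, shCPT-1 1, shCPT-1 2, shCPT-1 3, shCPT-2 2 or shCPT-2 3, with values between 0.11 and 0.14. TARS1, the threonyl enzyme, rose with ETX (0.28 ± 0.05, limma adjusted p = 0.000867), as did NARS1, the asparaginyl enzyme (0.21 ± 0.05, limma adjusted p = 0.00627). In shCPT-1 and shCPT-2 TARS1 differed by 0.08 and 0.02 and NARS1 by -0.01 and 0.03, none of them called.

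The response element can be set beside these changes. All 6 tested cytosolic members with a match rose with ETX, with a median change of 0.47. Of the 8 tested cytosolic members with a promoter window and no match, 5 rose and 2 fell with ETX, with a median of 0.38, and SARS1, the largest rise, is one of them. In shCPT-1 4 of the 6 and 4 of the 8 rose, and in shCPT-2 3 of the 6 and 7 of the 8 rose. Of the 300 tested genes with a match anywhere in the series, 34.3% rose with ETX, 25.7% in shCPT-1 and 27.7% in shCPT-2. Over all tested genes, with or without a match, 21.9%, 23.1% and 25.6% rose in ETX, shCPT-1 and shCPT-2, and 19.4% fell with ETX. YARS2, the mitochondrial member with a match, differed by -0.002 with ETX.

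The mitochondrial enzymes, which charge the tRNAs for the respiratory chain subunits encoded in mitochondrial DNA, moved in both directions. MARS2, the mitochondrial methionyl enzyme, had 7.94, 7.94 and 7.97 in ETX, 7.56, 7.48 and 7.61 in shCPT-1 and 8.19, 7.98 and 8.18 in shCPT-2, against 7.28, 7.47 and 7.43 in scramble. ETX and shCPT-2 lay well above scramble and shCPT-1 just above it. MARS2 rose 1.47-fold with ETX (0.56 ± 0.07, limma adjusted p = 6.83e-05) and 1.65-fold in shCPT-2 (0.72 ± 0.07, 2.83e-06), and was 0.15 ± 0.07 higher in shCPT-1 without a call (0.0795).

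SARS2, CARS2 and VARS2 were the 3 largest mitochondrial falls with ETX. SARS2, the seryl enzyme, had 7.87, 8.02 and 7.95 in ETX, 8.19, 8.32 and 8.42 in shCPT-1 and 8.34, 8.46 and 8.38 in shCPT-2, against 8.54, 8.50 and 8.31 in scramble. Only its ETX arrays stood clear of scramble (-0.50 ± 0.07, limma adjusted p = 0.000289), with -0.14 in shCPT-1 and -0.06 in shCPT-2, neither called. CARS2, the cysteinyl enzyme, had 8.71, 8.70 and 8.67 in ETX, 8.94, 9.07 and 9.06 in shCPT-1 and 9.08, 9.27 and 9.13 in shCPT-2, against 9.18, 9.16 and 9.11 in scramble. CARS2 fell by 0.46 ± 0.06 with ETX (limma adjusted p = 9.35e-05) and differed by -0.13 in shCPT-1 (0.0875) and 0.01 in shCPT-2 (0.92). VARS2, the valyl enzyme, had 8.95, 8.91 and 9.04 in ETX, 8.96, 9.10 and 9.13 in shCPT-1 and 9.03, 9.22 and 9.03 in shCPT-2, against 9.59, 9.37 and 9.34 in scramble. Like VARS1, it was lower on every altered array, by 0.47 ± 0.08 with ETX (limma adjusted p = 0.000618), 0.37 ± 0.08 in shCPT-1 (0.00225) and 0.34 ± 0.08 in shCPT-2 (0.00299, not called with the actin covariate at -0.20).

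PARS2, the prolyl enzyme, rose in all 3 comparisons. It had 7.67, 7.73 and 7.67 in ETX, 7.63, 7.66 and 7.69 in shCPT-1 and 7.81, 7.81 and 7.82 in shCPT-2, against 7.52, 7.52 and 7.45 in scramble. No altered array overlapped scramble, with rises of 0.19 ± 0.04 with ETX (limma adjusted p = 0.00263), 0.16 ± 0.04 in shCPT-1 (0.00742) and 0.31 ± 0.04 in shCPT-2 (4.64e-05). RARS2, the arginyl enzyme, averaged 9.39 ± 0.031 (SD) in ETX, against 9.10 ± 0.13 (SD) in scramble (n = 3 each), and rose with ETX by 0.30 ± 0.07 (limma adjusted p = 0.00642). Its differences of 0.14 in shCPT-1 and 0.12 in shCPT-2 were not called. The second RARS2 probe set read 0.40 in shCPT-1 (limma adjusted p = 0.0292) and 0.29 in shCPT-2 (0.092). WARS2, the tryptophanyl enzyme, did the reverse on the probe sets that stand for the genes, with 0.001 for ETX and rises of 0.23 ± 0.06 in shCPT-1 (limma adjusted p = 0.00652) and 0.32 ± 0.06 in shCPT-2 (0.000643). The second WARS2 probe set read -0.07 in shCPT-1 (limma adjusted p = 0.46) and 0.24 in shCPT-2 (0.0199). In shCPT-1 the contrast of RARS2 and WARS2 thus rests on the probe sets used.

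Other mitochondrial members changed in 1 or 2 groups. IARS2, the isoleucyl enzyme, had 11.37, 11.38 and 11.37 in ETX, 11.73, 11.60 and 11.66 in shCPT-1 and 11.43, 11.40 and 11.40 in shCPT-2, against 11.32, 11.34 and 11.42 in scramble, and rose in shCPT-1 (0.30 ± 0.05, limma adjusted p = 0.000206). It was not called with ETX (0.01) or in shCPT-2 (0.05). NARS2, the asparaginyl enzyme, had 9.55, 9.53 and 9.51 in ETX, 8.94, 9.02 and 9.11 in shCPT-1 and 9.31, 9.35 and 9.30 in shCPT-2, against 9.39, 9.40 and 9.28 in scramble. ETX arrays were the highest and shCPT-1 arrays the lowest. NARS2 fell by 0.33 ± 0.05 in shCPT-1 (limma adjusted p = 0.000304) and rose by 0.18 ± 0.05 with ETX (0.0173), a rise that was not called without scramble 3 (0.14) or ETX 1 (0.17). FARS2, the phenylalanyl enzyme, had 9.43, 9.42 and 9.40 in ETX, 9.80, 9.50 and 9.48 in shCPT-1 and 9.60, 9.28 and 9.57 in shCPT-2, against 9.08, 9.13 and 9.28 in scramble. It rose by 0.43 ± 0.10 in shCPT-1 (limma adjusted p = 0.00329) and by 0.32 ± 0.10 in shCPT-2 (0.0152, not called without scramble 1, shCPT-2 1 or shCPT-2 3, at 0.27 to 0.28, nor with the actin covariate at 0.11), and was 0.26 ± 0.10 higher with ETX without a call (0.0507). The other kept FARS2 probe set read 0.05 in shCPT-1 (limma adjusted p = 0.562) and 0.03 in shCPT-2 (0.718). Both knockdown rises thus come from the probe set that stands for FARS2, although they were still called with the probe sets averaged.

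EARS2, the glutamyl enzyme, which also charges the mitochondrial glutamine tRNA before that tRNA is amidated, rose in shCPT-1 (0.23 ± 0.06, limma adjusted p = 0.00609) and differed by 0.12 with ETX and 0.13 in shCPT-2, neither called. The other kept EARS2 probe sets read 0.11 and 0.13 in shCPT-1 (limma adjusted p = 0.106 and 0.0955). In shCPT-2 they read -0.06 and -0.02, also without a call. AARS2, the alanyl enzyme, fell in shCPT-1 (-0.28 ± 0.07, limma adjusted p = 0.00693, and -0.17 with the actin covariate, not called) and was 0.11 lower in shCPT-2 without a call (log2 change -0.11). On the other AARS2 probe set the shCPT-1 change was not called (-0.15, limma adjusted p = 0.137). The AARS2 fall with ETX (-0.20 ± 0.07, limma adjusted p = 0.0373) was the mitochondrial call whose arrays overlapped scramble, and AARS2 was not called there without scramble 1, scramble 2, ETX 1, ETX 2, ETX 3 or shCPT-2 3, with values between -0.22 and -0.15. LARS2, the leucyl enzyme, fell by 0.14 ± 0.04 with ETX (limma adjusted p = 0.0162), and by 0.12 without ETX 2, where it was not called (0.0639). YARS2, the tyrosyl enzyme, rose in shCPT-2 (0.19 ± 0.06, limma adjusted p = 0.018), but not without scramble 2 (0.18) or shCPT-2 2 (0.14). HARS2, the histidyl enzyme, was not called in any comparison against scramble (-0.10, -0.04 and 0.03 in ETX, shCPT-1 and shCPT-2). HARS1 and HARS2 lie head to head on opposite strands, and their promoter windows share 184 bases. The count of 5 mitochondrial falls with ETX was 3 without ETX 2, and the count of 1 mitochondrial fall in shCPT-2 was 2 without scramble 3.

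Setting each cytosolic enzyme beside the mitochondrial enzyme of the same amino acid gave 15 pairs. With ETX the cytosolic change was above the mitochondrial one in 13 pairs, with a median difference of 0.33, and in 4 pairs the enzymes were called in opposite directions (SARS1 and SARS2, CARS1 and CARS2, AARS1 and AARS2, LARS1 and LARS2). These 4 were 2 without ETX 2, where neither AARS2 nor LARS2 was called, and LARS1 lost its call with probe sets averaged. The seryl pair was the widest, with 0.98 for SARS1 and -0.50 for SARS2, a difference of 1.48 on the log2 scale. The cysteinyl pair followed with 0.57 for CARS1 and -0.46 for CARS2. Both valyl enzymes fell and both arginyl enzymes rose with ETX, by similar amounts within each pair (-0.41 for VARS1 and -0.47 for VARS2, and 0.35 for RARS1 and 0.30 for RARS2). The likeness of the valyl pair rests on the VARS1 probe set used. A second VARS1 probe set rose with ETX (0.37, limma adjusted p = 0.00927), and the averaged change was -0.021 (0.724). In shCPT-1 and shCPT-2 the cytosolic change was above the mitochondrial one in 10 pairs each, with median differences of 0.06 and 0.05, and 1 pair (AARS1 and AARS2) and 0 pairs were called in opposite directions by limma. The differences within pairs were not tested.

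**Figure D3:**
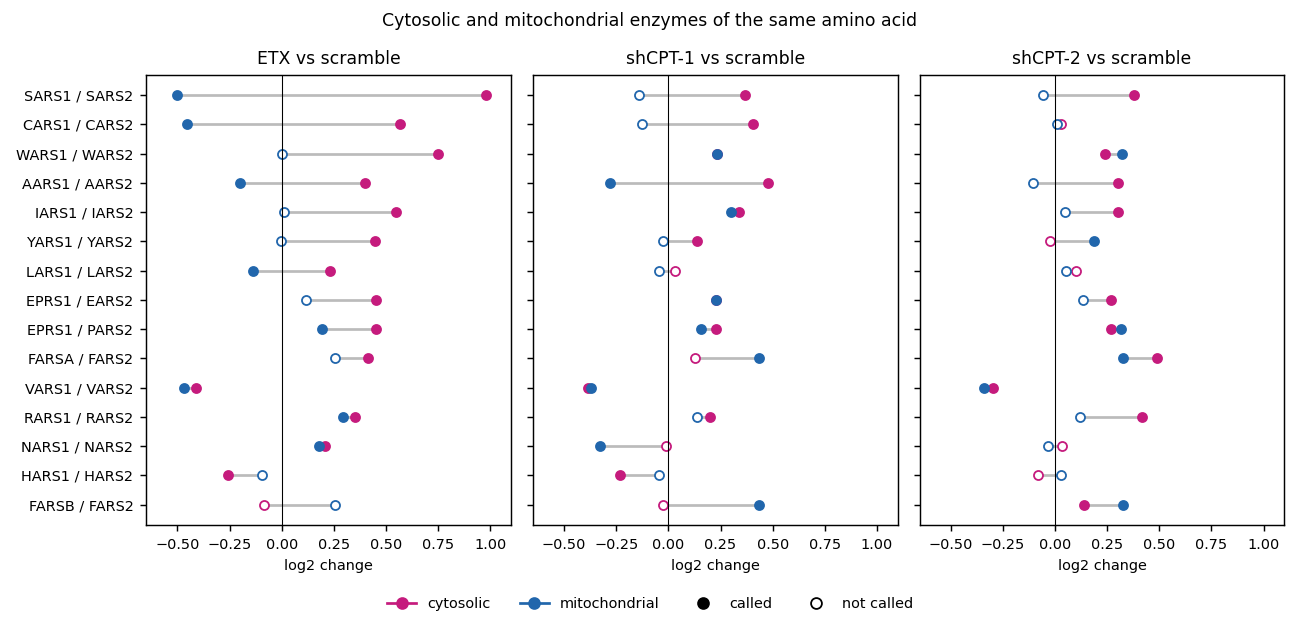
Log2 change against scramble (horizontal axis) of the cytosolic and the mitochondrial enzyme of the same amino acid, joined by a line, in 15 pairs (rows) for ETX, shCPT-1 and shCPT-2 (panels from left to right, n = 3 arrays per group); filled points were called and open points were not. The longest lines are those of the seryl and cysteinyl pairs with ETX, and the points of the valyl pair lie close together on the left in all 3 panels. Each point is the probe set that stands for the gene, and a second VARS1 probe set read otherwise.

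The altered groups were also set against each other, comparisons that use no scramble array except for the shared spread. In ETX against shCPT-1, 10 of 17 cytosolic members were higher and 1 lower, with a median difference of 0.21, where 19.8% of all tested genes were higher and 22.9% lower. Mitochondrial members were 2 higher and 4 lower, with a median of -0.09, and 42.7% of all tested genes were called in either direction. SARS1 was 0.61 ± 0.09 higher in ETX (limma adjusted p = 0.000161), but 0.08 higher with no call on its second probe set (0.215) and 0.35 higher with both averaged. WARS1 was 0.52 ± 0.05 higher (6.04e-06) and YARS1 0.31 ± 0.04 higher (4.62e-05). Of the mitochondrial members, NARS2 was 0.51 ± 0.05 higher in ETX (limma adjusted p = 7.66e-06) and MARS2 0.40 ± 0.07 higher (0.000316), while SARS2 (-0.36 ± 0.07), CARS2 (-0.33 ± 0.06), IARS2 (-0.29 ± 0.05) and WARS2 (-0.23 ± 0.06) were lower. A second WARS2 probe set read -0.008 here (limma adjusted p = 0.949), and WARS2 was not called with its probe sets averaged (-0.12, 0.107). AARS1 did not differ beyond its error (-0.08, 95% interval -0.20 to 0.05).

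In ETX against shCPT-2, 9 cytosolic members were higher and 3 lower, with a median of 0.17, where 20.9% of all tested genes were higher and 24.9% lower. SARS1 (0.60 ± 0.09), CARS1 (0.54 ± 0.04), WARS1 (0.51 ± 0.05), YARS1 (0.47 ± 0.04) and GARS1 (0.41 ± 0.05) led, with 0.32 for SARS1 and 0.23 for YARS1 on their second probe sets, and KARS1 was 0.39 ± 0.05 lower in ETX (limma adjusted p = 6.73e-05). Of 15 mitochondrial members 1 was higher and 7 were lower in ETX, with a median of -0.13, and 45.8% of all tested genes were called in either direction. The 7 were 4 without ETX 1, and the 1 was 2 without scramble 3 or without shCPT-2 3. RARS1 (-0.07, 95% interval -0.21 to 0.07) and FARSA (-0.08, -0.30 to 0.15) did not differ beyond their error.

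Between the knockdowns, shCPT-2 against shCPT-1, 4 cytosolic members were higher and 4 lower, where 17.7% of all tested genes were higher and 17.8% lower, and 4 mitochondrial members were higher and 1 lower, with 35.5% of all tested genes called in either direction. CARS1 was 0.37 ± 0.04 lower in shCPT-2 (limma adjusted p = 2.37e-05). MARS2 was 0.56 ± 0.07 higher in shCPT-2 (limma adjusted p = 3.61e-05), NARS2 0.30 ± 0.05 higher (0.000783) and IARS2 0.25 ± 0.05 lower (-0.25, 0.000921). SARS1 and WARS1 differed by 0.01 each, with 95% intervals of -0.19 to 0.21 and -0.11 to 0.12, while the second SARS1 probe set was lower in shCPT-2 (-0.23, limma adjusted p = 0.00365). The 4 cytosolic members higher were 2 without shCPT-1 1, shCPT-1 3 or shCPT-2 2 and 1 without shCPT-1 2 or shCPT-2 3, and the 4 lower were 2 without shCPT-1 1, shCPT-2 1 or shCPT-2 2.

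The group means were then put in order for each gene. ETX had the highest mean for 10 of 17 cytosolic members (58.8%) and scramble the lowest for 11 (64.7%). ETX had the highest mean for 23.7% of all tested genes and scramble the lowest for 25.9%. For the 15 mitochondrial members shCPT-2 was highest for 7 (46.7%, against 27% of all tested genes) and scramble lowest for 7 (46.7%). ETX was highest for 2 and lowest for 5 (33.3%, against 30.6% of all tested genes). Per array, the median over the cytosolic members relative to the scramble mean was 0.38 to 0.43 on the ETX arrays, 0.11 to 0.25 in shCPT-1 and 0.18 to 0.24 in shCPT-2, against -0.02 to 0.07 in scramble. The array closest to the ETX values in shCPT-1 was shCPT-1 1 and in scramble it was scramble 3.

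**Figure D4:**
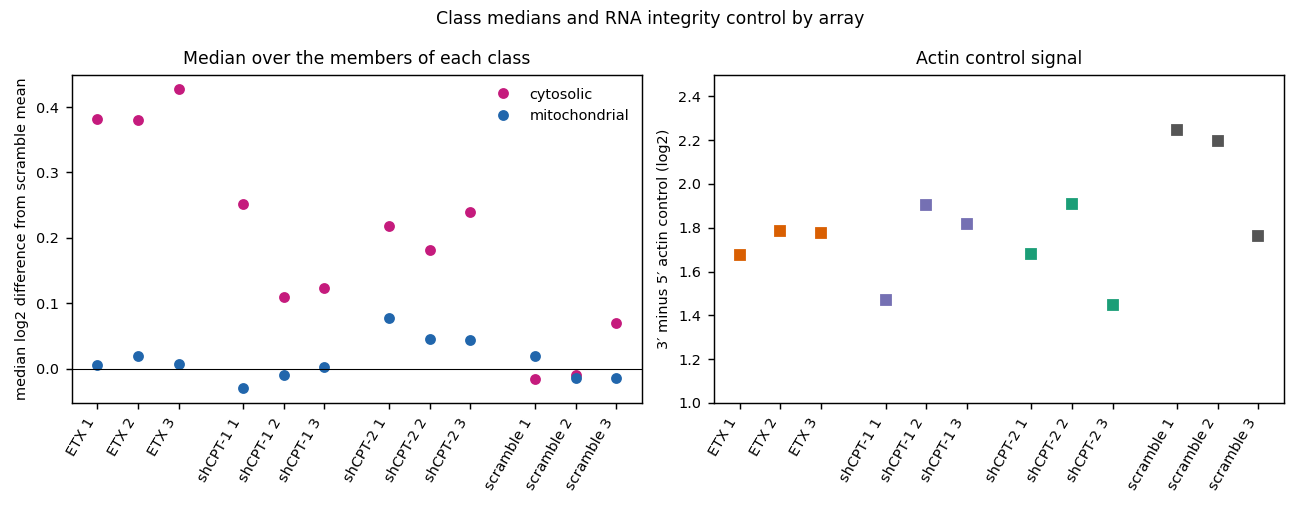
Left, the median over the cytosolic (17) and the mitochondrial (15) members of the log2 difference from the scramble mean, for each of the 12 arrays; right, the actin control (log2 signal at the 3′ end minus the 5′ end) of the same arrays. The cytosolic medians lie at 0.38 to 0.43 on the ETX arrays against -0.02 to 0.07 on the scramble arrays, and the actin control is highest on scramble 1 and 2 (2.25 and 2.19).

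Of 18 members with several kept probe sets, 14 were called with ETX, and for 10 of those all kept probe sets had the same sign. SARS1, WARS1 and CARS1 rose on every kept probe set with ETX (0.98 and 1.02 for SARS1, 0.75 and 0.78 for WARS1, and 0.57, 0.62 and 0.92 for CARS1). For EPRS1 the probe set that stands for the gene rose in shCPT-2 by 0.27, while its other probe sets were lower by limma (-0.45 and -0.69, adjusted p = 0.00735 and 0.000437), and with ETX they read 0.07 and -0.02. For VARS1 a second probe set rose with ETX (0.37, limma adjusted p = 0.00927) and in shCPT-2 (0.29, 0.0246), opposite to the one that stands for the gene. FARSA fell with ETX on its other probe set (-0.17, limma adjusted p = 0.0406), and the 4 probe sets of LARS1 lay on both sides of zero with ETX. FARS2 read -0.19 on its other probe set with ETX (limma adjusted p = 0.0322). With the probe sets of each gene averaged, 10 cytosolic members rose with ETX, where 22.7% of all tested genes did. EPRS1 (0.17), FARSA (0.12), LARS1 (0.08) and VARS1 (-0.021) were no longer called with ETX by limma in that fit. VARS1 in shCPT-2 (-0.004), EPRS1 in shCPT-1 (-0.047) and WARS2 in shCPT-1 (0.08) were not called either when averaged, and EPRS1 was lower in shCPT-2 (-0.29, limma adjusted p = 0.00447). The averaged changes of VARS1 in shCPT-1 (-0.15) and FARSA in shCPT-2 (0.23) were still called and over 1.5 times smaller. Probe sets of a gene cover different stretches of its transcripts, and which transcripts each one reports was not analysed here. In these probe-set values the p-values were adjusted over all kept probe sets.

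**Figure D5:**
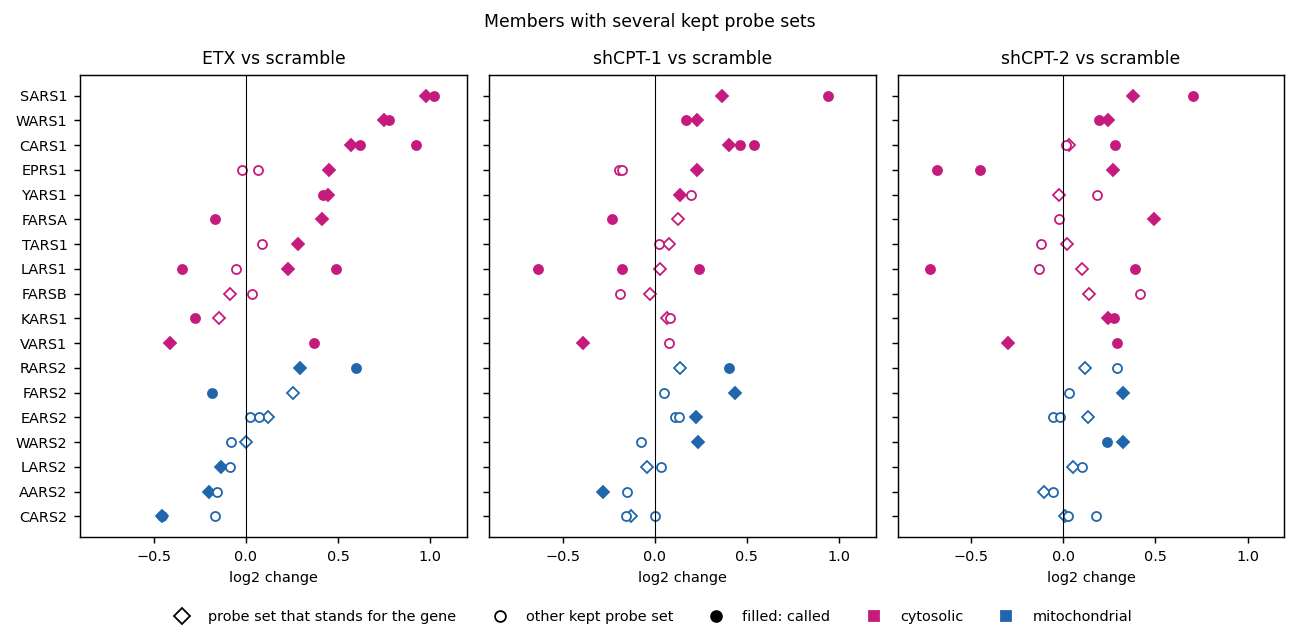
Log2 change against scramble (horizontal axis) of each kept probe set of the 18 members that have several, for ETX, shCPT-1 and shCPT-2 (panels from left to right, n = 3 arrays per group); diamonds mark the probe set that stands for the gene and filled symbols were called over all kept probe sets. SARS1, WARS1 and CARS1 have all symbols on the right with ETX, while EPRS1, FARSA, LARS1 and VARS1 have symbols on both sides of zero.

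Genes that act around the synthetases were read from 6 lists with 73 genes, 65 of them tested. Unlike the members, these genes were not checked with the actin covariate, with arrays left out or on their other probe sets. The part of RNA quality in their changes was therefore not tested. Among 22 tested genes of uncharged tRNA sensing and eIF2, 11 rose and 3 fell with ETX, 8 rose and 4 fell in shCPT-1, and 9 rose and 6 fell in shCPT-2. The shares of all tested genes that rose and fell, against which each list is read, were 21.9% and 19.4% with ETX, 23.1% and 18% in shCPT-1, and 25.6% and 20.5% in shCPT-2. ATF4 had 12.91, 12.85 and 12.91 in ETX, 12.37, 12.47 and 12.47 in shCPT-1 and 12.06, 12.26 and 12.12 in shCPT-2, against 12.36, 12.34 and 12.23 in scramble. Its mRNA rose with ETX (0.58 ± 0.06, limma adjusted p = 2.35e-05), was not called in shCPT-1 (0.13) and was lower in shCPT-2 (-0.16 ± 0.06, limma adjusted p = 0.0368), where its arrays overlapped scramble. CEBPB, a CEBP factor that can pair with ATF4, rose with ETX (0.70 ± 0.04, limma adjusted p = 2.55e-07) and fell in shCPT-1 (-0.11 ± 0.04, 0.0451) and shCPT-2 (-0.39 ± 0.04, 6.18e-06). TRIB3, a target and inhibitor of ATF4, rose with ETX and in shCPT-1 (0.71 ± 0.05 and 0.61 ± 0.05, limma adjusted p = 2.91e-06 and 3.01e-06) and read -0.04 in shCPT-2. DDIT3, which encodes the stress factor CHOP, rose by 0.67 ± 0.06 with ETX and 0.34 ± 0.06 in shCPT-1, and was 0.15 higher in shCPT-2 without a call. EIF2AK3, the eIF2 kinase PERK of the endoplasmic reticulum, rose in all 3 (0.58, 0.53 and 0.60), while EIF2AK4, which encodes GCN2, read -0.03 with ETX, fell by 0.24 in shCPT-1 and read -0.001 in shCPT-2. Among the guanine nucleotide exchange subunits, EIF2B2 fell by 0.25 ± 0.05 with ETX and 0.41 ± 0.05 in shCPT-2, and EIF2B4 fell by 0.31 ± 0.04 in shCPT-1 and 0.24 ± 0.04 in shCPT-2. EIF2B1 rose by 0.37 ± 0.06 in shCPT-2 and EIF2B5 by 0.21 ± 0.06 in shCPT-1 and 0.24 ± 0.06 in shCPT-2, and EIF2B3 was not called in any of the 3. PPP1R15A, which directs the eIF2 phosphatase, rose by 0.34 ± 0.06 with ETX and 0.49 ± 0.06 in shCPT-2 and fell by 0.24 ± 0.06 in shCPT-1.

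Of 16 tested amino acid synthesis genes, 9 rose and 0 fell with ETX by limma (7 did not pass), 8 rose and 1 fell in shCPT-1, and 6 rose and 3 fell in shCPT-2. ASNS, asparagine synthetase, and CTH, which makes cysteine, rose in every comparison against scramble (ASNS by 1.68, 0.84 and 0.61, and CTH by 2.07, 1.41 and 0.996 in ETX, shCPT-1 and shCPT-2). The serine synthesis genes PSAT1 and PSPH rose by 0.82 and 0.92 with ETX. ASS1, of the same list, rose by 1.08 in shCPT-1 and 0.67 in shCPT-2 (limma adjusted p = 1.85e-08 and 7.33e-07). Its mean was 7.98 in ETX and 7.42 in scramble. NARS1, the enzyme that uses asparagine, rose by 0.21 beside 1.68 for ASNS with ETX, and CARS1 by 0.57 beside 2.07 for CTH. XPOT, the exporter of tRNA from the nucleus, had 11.43, 11.45 and 11.43 in ETX, 11.23, 11.19 and 11.15 in shCPT-1 and 11.31, 11.16 and 11.24 in shCPT-2, against 10.68, 10.77 and 10.82 in scramble. No altered XPOT array overlapped scramble, with rises of 0.68 ± 0.05 (limma adjusted p = 2.53e-06), 0.44 ± 0.05 (2.97e-05) and 0.48 ± 0.05 (9.82e-06) in ETX, shCPT-1 and shCPT-2. Among 9 tested genes of tRNA export and elongation, 3 rose and 3 fell with ETX, 3 rose and 1 fell in shCPT-1, and 6 rose and 1 fell in shCPT-2. GFM1, the mitochondrial elongation factor G, rose in all 3 (0.46 ± 0.10, 0.76 ± 0.10 and 0.83 ± 0.10). EEF1A2 rose by 1.53 in shCPT-1 and 0.85 in shCPT-2 and was not called with ETX (-0.24).

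Of 10 tested genes for mitochondrial tRNA amidation, formylation, modification and initiation, 2 rose and 0 fell with ETX by limma (8 did not pass), 2 rose and 3 fell in shCPT-1, and 3 rose and 2 fell in shCPT-2, where 21.9%, 23.1% and 25.6% of all tested genes rose. MTFMT, which formylates the methionine that MARS2 attaches, rose in each (0.32 ± 0.08, 0.39 ± 0.08 and 0.34 ± 0.08 in ETX, shCPT-1 and shCPT-2). GATC, a subunit of the amidotransferase that acts on tRNA charged by EARS2, fell in shCPT-1 and shCPT-2 (by 0.28 ± 0.05 and 0.24 ± 0.05) and read -0.02 with ETX. Among 7 tested genes of editing and selenocysteine, 4 rose and 2 fell with ETX, 1 rose and 1 fell in shCPT-1, and 3 rose and 1 fell in shCPT-2. TARS3, a second cytosolic threonyl enzyme outside the list of members, rose by 0.49 ± 0.08 with ETX (limma adjusted p = 0.000817) and fell by 0.42 ± 0.08 in shCPT-1 (0.00178). AIMP1, the one tested scaffold protein of the multi-synthetase complex, rose by 0.15 ± 0.04 with ETX (limma adjusted p = 0.0102) and by 0.24 ± 0.04 in shCPT-2 (0.000416).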

How the data were processed

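Total RNA of 12 MDA231 samples was measured, each on an Affymetrix array of its own. The authors deposited linear intensities, 1 for each probe set, which came from RMA per the submitters' processing notes. RMA subtracts background, sets the arrays to a shared distribution and joins the probes of a set. The sources used here do not give its version.

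Log2 of the 54675 deposited intensities per array was taken. The filter asked for a value over the array median on 3 or more arrays (28630 kept, 23565 with 1 gene symbol, symbols updated through gene numbers), and the kept probe set with the highest mean stood for its gene (12887 genes). Of 67 member probe sets 56 were kept. Groups were compared with limma 3.58.1 in R 4.3.3 (lmFit and eBayes, all 12 arrays, no covariates, 8 residual degrees of freedom, two-sided), with Benjamini-Hochberg adjustment within each comparison and calls at 0.05. With groups of 3, exact permutation p-values stop at 0.1, so none is given. The number of arrays limits precision. Figures used Python 3.11.15 and matplotlib 3.10.9.

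The members and gene lists were chosen with earlier results of these data known, so counts and medians are given with no test over members. Members named with full statistics were, per comparison against scramble, up to 8 cytosolic and 6 mitochondrial calls with the smallest adjusted p, and calls against the direction of most of their class. Of up to 4 calls with the smallest p per pathway list and comparison, not all were named in the results. GOT2, EEF1A1, EEF1D, TUFM, GTPBP3, PSTK and SEPHS1 are among those left out, so the genes named need not be the strongest of a list. ATF4, EIF2AK4 and other genes of the named reactions were added for their role after their values were seen. Replicate numbers in the titles were not used to pair the arrays in the main fit. Deviations from group means of same-numbered arrays correlated between -0.457 and 0.327 over 18 pairs, 8 of them above 0.1. Arrays with different numbers were not compared in this way, so these values cannot settle whether the numbers mark a pairing. In a simulation that drew each gene independently from its own mean and spread, 85 of 100 genes changed by 0.5 (log2) in ETX were recovered. Of 100 changed by 1, 97 were, with 10 calls among 12687 unchanged genes. It changed a far smaller share of genes than the 41.3% called with ETX and held no deviation shared across an array. These rates therefore do not carry over to the real comparison. Alternatives were other filters, other choices of probe set, normalization again, other variance models, array weights, fewer arrays, the actin covariate, a replicate block, a fold of 1.5 and leaving out each array.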

Additional observations from a re-analysis of the deposited data

How the results depend on the processing

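The 111 calls of members over the 6 comparisons were recomputed under 25 alternatives, and 8 member values changed sign past a call. With probe sets averaged per gene, EPRS1 was -0.047 in shCPT-1, -0.29 in shCPT-2 and -0.24 in shCPT-2 against shCPT-1, LARS1 was -0.13 in shCPT-1, and VARS1 was 0.13 in ETX against shCPT-1. Without probe sets ending in _x_at or _s_at FARSA was -0.17, -0.23 and -0.024 in ETX, shCPT-1 and shCPT-2. The rest were 87 sign differences among values not called. That setting tests 11 cytosolic members in place of 17, and counted 8 cytosolic rises with ETX, 5 rises and 0 falls in shCPT-2, 6 higher in ETX against shCPT-1 and 2 lower in shCPT-2 against shCPT-1. Of all genes tested in it, 21.5% rose with ETX, and 25.8% rose and 19% fell in shCPT-2. In ETX against shCPT-1 19.1% were higher, and in shCPT-2 against shCPT-1 16.4% were lower. No filter gave 2 cytosolic members lower in shCPT-2 against shCPT-1, and the mean of probe sets 2 mitochondrial ones lower there. Of all tested genes 10.6% and 17.6% were lower in these 2 fits. Trend and robust gave 2 mitochondrial members higher in ETX against shCPT-2, where 21.4% of all tested genes were. Only the groups compared gave 3 mitochondrial falls with ETX and 4 in ETX against shCPT-2, where 16% and 24.1% of all tested genes were lower.

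Array weights gave 5 mitochondrial falls in shCPT-1, 2 cytosolic falls, 8 mitochondrial rises and 4 falls in shCPT-2, 7 mitochondrial members lower in ETX against shCPT-1, 5 cytosolic lower in ETX against shCPT-2 and 7 cytosolic higher in shCPT-2 against shCPT-1; that fit also called more of all tested genes (29.5% higher and 31% lower with ETX). Without the 4 least correlated arrays shCPT-2 had 2 cytosolic and 2 mitochondrial falls, where 26.1% of all tested genes fell. With the actin covariate the shCPT-1 comparison had 1 cytosolic fall and shCPT-2 had 0, mitochondrial falls 0 in shCPT-2, and 2 mitochondrial members were higher in ETX against shCPT-2. In that fit 14.4% of all tested genes fell in shCPT-1 and 16.9% in shCPT-2, and 23.2% were higher in ETX against shCPT-2. Asking also for a fold of 1.5 left 3 cytosolic rises with ETX (SARS1, WARS1 and GARS1), 1 mitochondrial rise in shCPT-2 (MARS2), and 1 cytosolic member higher in ETX against each knockdown (SARS1), with 0 for every other count. By that rule 2.67% of all tested genes rose with ETX and 3.3% in shCPT-2. In ETX, 3.93% were higher against shCPT-1 and 4.75% against shCPT-2. A replicate block gave 13 cytosolic rises and 3 falls with ETX and 5 mitochondrial rises, against 4 without it, and moved no other count of calls.

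Leaving out 1 array at a time gave 13 to 13 cytosolic rises with ETX, 3 to 5 mitochondrial falls with ETX, 1 to 2 mitochondrial falls in shCPT-2, 1 to 2 mitochondrial members higher and 4 to 8 lower in ETX against shCPT-2, and 1 to 4 cytosolic members higher and 2 to 4 lower in shCPT-2 against shCPT-1. Apart from the fold of 1.5, 17 of 25 ETX calls, 13 of 19 shCPT-1 calls and 9 of 17 shCPT-2 calls kept their direction and passed under every alternative in which the member was tested. Causes of these differences were not tested, apart from the smaller number of members tested noted above.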
